A study of Homo sapiens with 8 samples.

Results

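Calsyntenin-2 (CLSTN2), LRRN1, CADM1, NTRK3, FAT3, CELF2, GAS1, B3GALT2 and APLN are 9 genes that were higher in frozen and thawed mesenchymal stromal cells than in fresh ones. They are 9 of the 23354 genes of the deposited count table, and all 9 were among the 15564 genes that passed the filter on low counts. The 9 were chosen by their levels in an earlier look at the same data, in which they stood high in frozen against fresh libraries. The difference between DMSO-frozen and fresh libraries is therefore given as a description with no test. The question addressed here is how that first step compares with a second one, between cells frozen in osmolyte solutions and cells frozen in DMSO. The gradation over the 2 steps was also known when the genes were named, and the DMSO-frozen libraries enter both steps, so the tests of the second step are values from a fit over all genes and not independent support.

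The cells were mesenchymal stromal cells made from the human embryonic stem cell line H9 and grown in serum-containing medium on gelatin. Total RNA of 8 libraries was sequenced. In the 3 osmolyte-frozen libraries the cells had been held in solutions labelled SMC (2 h), SGC (1 h) or SGI (1 h) and cooled at 3°C per minute. In the 2 DMSO-frozen libraries the cells had been held with dimethyl sulfoxide (DMSO), a common cryoprotectant, for 1 h or 0 h and cooled at 1°C per minute. The 3 fresh libraries came from cells that were not frozen, at 0 h, after 1 h in DMSO and after 1 h in medium. Solution and cooling rate changed together, so their parts in the second step cannot be told apart, and no fresh library was held in an osmolyte solution. Holding times also differed between the osmolyte-frozen and DMSO-frozen groups, which shared only the time of 1 h. Each condition had 1 library and the labels name no separate cultures, so p-values measure only the spread between libraries of a group, whose conditions differed. In bulk RNA, more cells of a type and more RNA per cell cannot be told apart.

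Several of the 9 genes encode proteins through which neurons recognise each other. Calsyntenins and the synaptic cell adhesion molecules are membrane proteins that take part in forming synapses, FAT cadherins are very large adhesion proteins that act in tissue and planar polarity, and leucine-rich repeat neuronal proteins are transmembrane proteins of the developing nervous system. NTRK3 encodes TrkC, the receptor tyrosine kinase for neurotrophin-3, whose signalling supports the survival of neurons. The other members have other roles: GAS1 is a membrane-anchored co-receptor for hedgehog ligands, CELF2 binds RNA and regulates alternative splicing, B3GALT2 transfers galactose to sugar chains, and APLN encodes apelin, a secreted peptide that acts on the receptor APLNR. The working name of the group, neural adhesion genes, thus covers only part of it.

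The promoters of the 3 members with the largest difference between osmolyte-frozen and fresh libraries are shown first, because they show how unlike the start regions of genes with a shared pattern were. They are RefSeq windows of 250 bases before to 50 bases after the start in GRCh38.p14, whereas the positions of the count table are in hg19. Capitals mark matches, on either strand, to the following motifs: the TATA box TATAAA, the AP-1 site TGANTCA, the cyclic AMP response element TGACGTCA, the E-box CACGTG, the core of the hypoxia element ACGTG, the GLI site GACCACCCA, the GC box GGGCGG and the CCAAT box CCAAT. The hypoxia core lies inside every such E-box. The CLSTN2 window is chr3:139934935-139935234 on the plus strand, the LRRN1 window chr3:3799181-3799480 on the plus strand and the B3GALT2 window chr1:193186564-193186863 on the minus strand.
CLSTN2: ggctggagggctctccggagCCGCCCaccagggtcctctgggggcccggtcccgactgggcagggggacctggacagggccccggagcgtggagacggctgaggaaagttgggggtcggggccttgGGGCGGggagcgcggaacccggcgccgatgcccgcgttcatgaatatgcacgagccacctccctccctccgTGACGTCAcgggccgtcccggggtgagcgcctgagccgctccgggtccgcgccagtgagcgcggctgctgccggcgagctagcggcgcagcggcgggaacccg
LRRN1: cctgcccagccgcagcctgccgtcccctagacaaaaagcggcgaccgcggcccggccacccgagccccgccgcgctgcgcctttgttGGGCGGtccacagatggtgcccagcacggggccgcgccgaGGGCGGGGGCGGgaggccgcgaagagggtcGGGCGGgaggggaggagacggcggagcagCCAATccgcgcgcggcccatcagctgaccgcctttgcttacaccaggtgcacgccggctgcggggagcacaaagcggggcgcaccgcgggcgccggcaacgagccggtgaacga
B3GALT2: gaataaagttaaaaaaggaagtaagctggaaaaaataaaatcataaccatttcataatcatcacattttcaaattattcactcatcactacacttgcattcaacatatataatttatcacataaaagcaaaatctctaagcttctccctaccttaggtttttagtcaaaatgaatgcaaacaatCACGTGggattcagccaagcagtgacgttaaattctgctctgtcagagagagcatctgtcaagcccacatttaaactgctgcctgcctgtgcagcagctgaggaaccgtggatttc

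CLSTN2 and LRRN1 each had a G+C content of 75.3%, against 36.7% for B3GALT2 and a median of 58.7% over all 35116 promoter windows. The CLSTN2 window held the cyclic AMP response element, a motif found in 1.85% of all windows, and also a GC box on either strand. LRRN1 held the GC box 4 times, a motif present in 45% of all windows, and the CCAAT box once, present in 34.6%. B3GALT2 held the E-box, present in 7.26% of windows, and with it the hypoxia core, present in 21.4%, and no other motif of the search. The TATA box is present in 11.5% of all windows, the AP-1 site in 7.71% and the GLI site in 0.236%, and none of these stood in the 3 windows shown. The table held windows for 7 of the 9 members. CADM1 and FAT3 had no entry, and CELF2 had 10 windows, of which none is shown. The windows of NTRK3, APLN and GAS1 had a G+C content of 72%, 68% and 61.7%. A match in such a window is a match of letters and no measured binding site.

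All 9 genes were higher in every osmolyte-frozen library than in either DMSO-frozen library, and higher in either DMSO-frozen library than in every fresh one. LRRN1, CADM1, NTRK3, CELF2, GAS1, B3GALT2 and APLN rose in osmolyte-frozen over DMSO-frozen cells, which is 7 of 9 past a Benjamini-Hochberg adjusted p of 0.05 in edgeR's quasi-likelihood test. None fell, and the differences of CLSTN2 and FAT3 did not pass. Among all tested genes 13.6% rose and 16.5% fell in that comparison, and 29.1% had every osmolyte-frozen library above every DMSO-frozen one. The median log2 difference of the 9 genes in this second step was 0.83, against 0.04 over all tested genes. In the first step, DMSO-frozen over fresh, the 9 genes had a median log2 difference of 1.37 against -0.01 over all genes. There 1.25% of all genes were called higher, 0.617% lower, and 16% had both DMSO-frozen libraries above all 3 fresh ones. These shares are given for scale only, because the members were chosen as higher in frozen than in fresh libraries.

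Levels are CPM, counts set to a common library size with edgeR's TMM factors, and group values are mean ± SD over libraries.

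**Figure D1:**
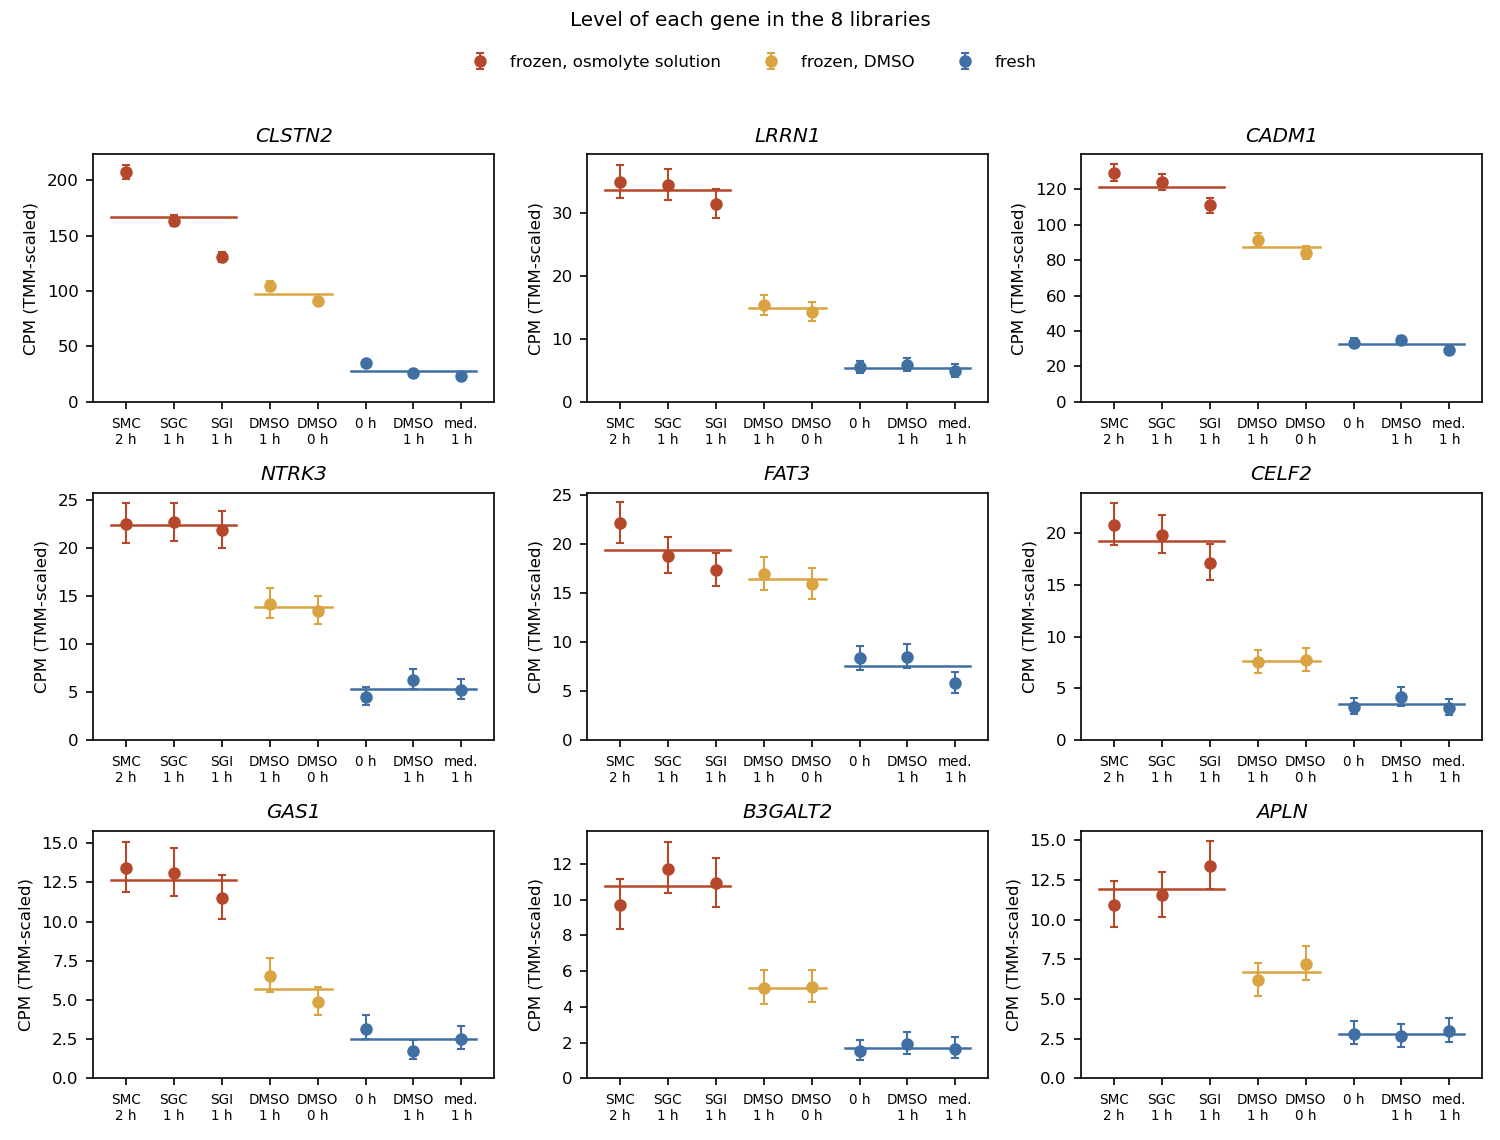
Level of each of the 9 genes in the 8 libraries, on a linear axis of TMM-scaled CPM that starts at 0 and differs between panels. Points are single libraries with 95% exact Poisson intervals for counting error, and short lines are group means: in every panel the 3 osmolyte-frozen libraries lie above the 2 DMSO-frozen ones, and these above the 3 fresh ones.

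LRRN1, a leucine-rich repeat transmembrane protein of neurons, had 35.0 CPM in SMC, 34.6 in SGC and 31.5 in SGI, against 15.4 in the 1 h and 14.4 in the 0 h DMSO-frozen library, and against 5.50, 5.87 and 4.95 in the fresh libraries at 0 h, after DMSO and after medium. The 3 osmolyte-frozen libraries lay within 4 CPM of each other and the 3 groups were far apart. LRRN1 averaged 33.7 ± 1.94 CPM in osmolyte-frozen libraries (SD, n = 3) and 14.9 ± 0.729 CPM in DMSO-frozen libraries (SD, n = 2). It was 2.27-fold higher in the second step (log2 1.18, SE 0.10, edgeR adjusted p = 3.26e-07) and 2.73-fold higher in the first (log2 1.45). Over fresh cells, which averaged 5.44 ± 0.463 CPM, osmolyte-frozen cells were 6.19-fold higher. The gene lies at chr3:3841121-3889387.

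CLSTN2, the calsyntenin with the largest first step of the 9 genes, had 207 CPM in SMC, 163 in SGC and 131 in SGI, against 104 in the 1 h and 91.1 in the 0 h DMSO-frozen library, and 35.0, 26.2 and 23.8 CPM in the fresh libraries at 0 h, after DMSO and after medium. No groups overlapped, and SMC was highest by a wide margin among the osmolyte-frozen libraries. Means were 167 ± 38.4 CPM in osmolyte-frozen libraries (SD, n = 3), 97.7 ± 9.36 in DMSO-frozen libraries (SD, n = 2) and 28.3 ± 5.94 in fresh libraries (SD, n = 3). The second step was 1.71-fold (log2 0.77, SE 0.24) and did not pass, with an edgeR adjusted p of 0.0536. Over 16 alternatives the log2 difference ranged over 0.49 to 0.92 and the adjusted p over 0.00401 to 0.250, with 9 of the 16 below the threshold. The first step was 3.45-fold (log2 1.79). CLSTN2 spans 632.893 kb at chr3:139654027-140286919, the longest of the 9 genes.

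CADM1, an immunoglobulin-type adhesion molecule of synapses that epithelial cells also carry, had 129 CPM in SMC, 124 in SGC and 111 in SGI, against 91.1 and 84.1 in the 1 h and 0 h DMSO-frozen libraries, and 33.3, 34.8 and 29.3 in the fresh libraries at 0 h, after DMSO and after medium. The gap between DMSO-frozen and fresh libraries was wider than that between the 2 kinds of frozen library. CADM1 averaged 121 ± 9.46 CPM in osmolyte-frozen, 87.6 ± 4.93 in DMSO-frozen and 32.5 ± 2.86 in fresh libraries. It rose 1.39-fold in the second step (log2 0.47, SE 0.09, edgeR adjusted p = 0.000953) and was 2.69-fold higher in the first. With only the libraries held for 1 h, which leave 1 DMSO-frozen library that is assumed to vary like the other groups, the second step was log2 0.36 with an edgeR adjusted p of 0.0695. CADM1 lies at chr11:115044345-115375241.

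FAT3, a giant cadherin, had 22.1 CPM in SMC, 18.8 in SGC and 17.3 in SGI, against 16.9 in the 1 h and 15.9 in the 0 h DMSO-frozen library, and 8.32, 8.51 and 5.82 in the fresh libraries at 0 h, after DMSO and after medium. SGI lay only just above the 1 h DMSO-frozen library, and their counting intervals overlapped. FAT3 averaged 19.4 ± 2.46 CPM in osmolyte-frozen, 16.4 ± 0.723 in DMSO-frozen and 7.55 ± 1.5 in fresh libraries. Its second step of 1.18-fold (log2 0.24, SE 0.14) did not pass, with an edgeR adjusted p of 0.210, and passed in 0 of 16 alternatives. Its first step was 2.17-fold, which was 82.2% of its whole log2 difference between osmolyte-frozen and fresh cells. FAT3 lies at chr11:92085262-92629635.

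NTRK3, the neurotrophin-3 receptor, had 22.5 CPM in SMC, 22.6 in SGC and 21.9 in SGI, against 14.2 and 13.4 in the 1 h and 0 h DMSO-frozen libraries, and 4.52, 6.28 and 5.24 in the fresh libraries at 0 h, after DMSO and after medium. The 3 osmolyte-frozen libraries were almost level. NTRK3 averaged 22.3 ± 0.402 CPM in osmolyte-frozen, 13.8 ± 0.505 in DMSO-frozen and 5.34 ± 0.884 in fresh libraries. It rose 1.62-fold in the second step (log2 0.69, SE 0.12, edgeR adjusted p = 0.000306) and was 2.58-fold higher in the first. The gene lies at chr15:88419988-88799962.

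GAS1, the hedgehog co-receptor, had 13.4 CPM in SMC, 13.1 in SGC and 11.5 in SGI, against 6.51 in the 1 h and 4.89 in the 0 h DMSO-frozen library, and 3.18, 1.77 and 2.52 in the fresh libraries at 0 h, after DMSO and after medium. The DMSO-frozen and the fresh libraries each differed among themselves by over 1 CPM, so that the first step depended on which libraries were set side by side. Means were 12.7 ± 1.03 CPM in osmolyte-frozen, 5.70 ± 1.15 in DMSO-frozen and 2.49 ± 0.702 in fresh libraries. GAS1 rose 2.22-fold in the second step (log2 1.15, SE 0.18, edgeR adjusted p = 0.000230) and was 2.28-fold higher in the first. It is the shortest of the 9 genes, at chr9:89559277-89562104.

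CELF2, the splicing regulator, had 20.8 CPM in SMC, 19.8 in SGC and 17.1 in SGI, against 7.52 and 7.69 in the 1 h and 0 h DMSO-frozen libraries, and 3.22, 4.14 and 3.10 in the fresh libraries at 0 h, after DMSO and after medium. It was the member for which the second step exceeded the first, by log2 0.22 with a standard error of 0.25. CELF2 averaged 19.3 ± 1.89 CPM in osmolyte-frozen, 7.604 ± 0.122 in DMSO-frozen and 3.49 ± 0.566 in fresh libraries. It rose 2.53-fold in the second step (log2 1.34, SE 0.14, edgeR adjusted p = 1.55e-06) and was 2.18-fold higher in the first. The gene lies at chr10:11047259-11378672.

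B3GALT2, the galactosyltransferase, had 9.69 CPM in SMC, 11.7 in SGC and 10.9 in SGI, against 5.07 and 5.09 in the 1 h and 0 h DMSO-frozen libraries, and 1.52, 1.91 and 1.65 in the fresh libraries at 0 h, after DMSO and after medium. Here SMC was the lowest of the osmolyte-frozen libraries, unlike for most members. B3GALT2 averaged 10.8 ± 1.03 CPM in osmolyte-frozen, 5.08 ± 0.0120 in DMSO-frozen and 1.69 ± 0.198 in fresh libraries. It rose 2.12-fold in the second step (log2 1.09, SE 0.15, edgeR adjusted p = 3.63e-05) and was higher by log2 1.58 in the first. Its difference of 6.36-fold between osmolyte-frozen and fresh cells was the largest of the 9. B3GALT2 lies at chr1:193147860-193155743, inside CDC73 at chr1:193091088-193223942, and the strand setting of the counting is not given in the sources used here. CDC73 itself averaged 44.6 ± 2.09 CPM in osmolyte-frozen, 59.8 ± 0.156 in DMSO-frozen and 60.2 ± 6.05 in fresh libraries. The part of CDC73 reads in the counts of B3GALT2 was not tested.

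APLN, the apelin precursor, had 10.9 CPM in SMC, 11.5 in SGC and 13.4 in SGI, against 6.16 and 7.22 in the 1 h and 0 h DMSO-frozen libraries, and 2.82, 2.64 and 2.96 in the fresh libraries at 0 h, after DMSO and after medium. The fresh libraries were close together, and SGI was highest. APLN averaged 11.9 ± 1.27 CPM in osmolyte-frozen, 6.69 ± 0.745 in DMSO-frozen and 2.81 ± 0.161 in fresh libraries. It rose 1.78-fold in the second step (log2 0.83, SE 0.14, edgeR adjusted p = 0.000254) and was 2.39-fold higher in the first. The gene lies at chrX:128779236-128788933.

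Set per length by the authors' deposited RPKM, CLSTN2 and CADM1 were the most abundant members in osmolyte-frozen cells, with means of 22.6 and 18.7 RPKM. LRRN1 followed with 5.83, GAS1 with 2.96, NTRK3 with 2.83, APLN with 2.46, B3GALT2 with 2.02 and CELF2 with 1.30 RPKM. FAT3 was lowest at 0.674 RPKM. The median of the 9 RPKM means was 2.83 in osmolyte-frozen, 1.48 in DMSO-frozen and 0.600 in fresh cells.

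On the log2 scale the first step was larger than the second for 8 of the 9 genes. The second step minus the first ranged over -1.01 for CLSTN2, -0.96 for CADM1, -0.88 for FAT3 and -0.67 for NTRK3 at one end, to -0.04 for GAS1 and 0.22 for CELF2 at the other. B3GALT2 stood at -0.50, APLN at -0.42 and LRRN1 at -0.27. Because the first step was part of the choice of the members, this difference has no test. The value for GAS1 lay between -0.70 and 0.40 over the alternatives. That of CELF2 stayed positive (0.07 to 0.30) and those of the other members stayed negative. These ranges come from refits of the same libraries or parts of them. In the main fit the standard error was 0.33 for GAS1 and 0.25 for CELF2. Each exceeded the size of the difference itself. The members were chosen on the same data, so the standard errors settle the order of the steps for none of them. The standard error was 0.41 for CLSTN2, 0.27 for B3GALT2, 0.25 for APLN and FAT3, 0.21 for NTRK3, 0.19 for LRRN1 and 0.16 for CADM1.

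The first step made up 45.6% to 82.2% of the whole log2 difference between osmolyte-frozen and fresh cells, with a median of 60.1%. It was 45.6% for CELF2, 50.8% for GAS1, 55.1% for LRRN1, 59.3% for B3GALT2 and 60.1% for APLN. It was 66.3% for NTRK3, 69.8% for CLSTN2, 75.2% for CADM1 and 82.2% for FAT3. CLSTN2, CADM1 and FAT3, which encode adhesion proteins, thus had the smallest shares in the second step, and LRRN1, also a neuronal surface protein, had a larger one. The receptor gene NTRK3 lay close to CLSTN2, whose difference between the steps had a standard error of 0.41. The shares therefore do not set the 3 adhesion genes apart from the rest.

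In CPM added, the order differed: the second step added more than the first for 6 of the 9 genes. Counted by fold, 4 members were at least 2-fold higher in the second step and passed the test, namely LRRN1, CELF2, GAS1 and B3GALT2, against 2.38% of all tested genes. In the first step all 9 were at least 2-fold higher, which reflects their choice as genes higher in frozen than in fresh libraries. Of all genes, 0.193% were called and at least 2-fold higher there. Over both steps the differences ranged from 2.57-fold for FAT3 to 6.36-fold for B3GALT2, with a median of 5.07-fold. Of all tested genes, 4.25% were called and at least 2-fold higher in osmolyte-frozen over fresh cells. The first step is part of this difference, so both shares are given for scale only.

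**Figure D2:**
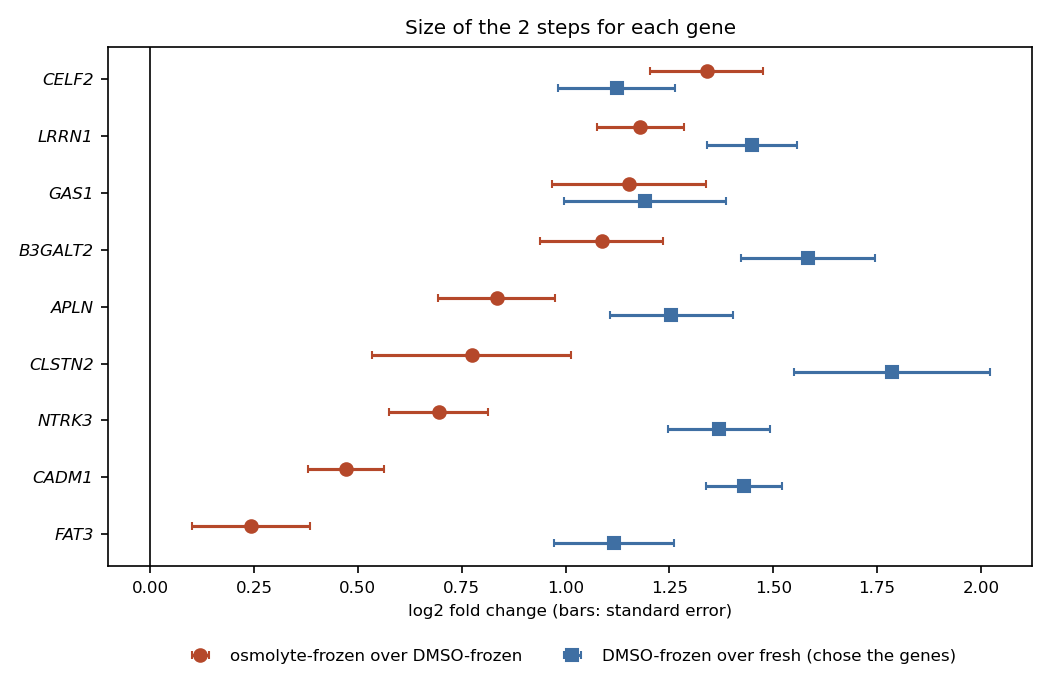
Log2 fold change of each of the 9 genes in the second step (circles, osmolyte-frozen over DMSO-frozen) and the first step (squares, DMSO-frozen over fresh), with standard errors as bars. The square lies right of the circle for every gene but CELF2, and the circles run from 0.24 for FAT3 to 1.34 for CELF2.

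The ranking of first-step rises shows where the members stood, but it is not the rule that chose them. They were chosen as higher in frozen than in fresh libraries, and the frozen libraries include the osmolyte-frozen ones. Among the 1.12% of tested genes that were called higher in DMSO-frozen over fresh libraries, had no overlap of libraries and reached 5 CPM, the members held ranks 3 to 9, 11 and 12. FAT3, at rank 12, was the member with the smallest first step at 2.17-fold, and BMP2, the next gene down and no member, stood at 2.16-fold with 9.23 CPM in DMSO-frozen and 4.26 CPM in fresh libraries. NTN1 and DKK2 ranked above the members and COL14A1 among them, and none of these was taken, and the edge of the list is thus not a step in the values.

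Pairs of single libraries that were matched for holding time or solution gave the same order. Between the frozen and the fresh library held for 1 h in DMSO, log2 ratios ran from 0.85 for CELF2 to 1.99 for CLSTN2 with a median of 1.38, and 7 members were at least 2-fold higher, against 1.88% of all genes. Between the frozen library in DMSO at 0 h and the fresh library at 0 h the ratios ran from 0.62 for GAS1 to 1.71 for B3GALT2 with a median of 1.34, and again 7 members were at least 2-fold higher, against 1.43% of all genes. These pairs belong to the first step and are descriptions.

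For the second step at a matched 1 h, SGC over DMSO-frozen cells gave log2 ratios from 0.15 for FAT3 to 1.39 for CELF2 with a median of 0.90, and 4 members were at least 2-fold higher, against 5.38% of all genes. SGI over the same DMSO-frozen library gave 0.03 for FAT3 to 1.18 for CELF2 with a median of 0.81 and likewise 4 members, against 6.01% of all genes. Both pairs share the DMSO-frozen library. All 9 ratios were above 0 in both pairs. The lack of overlap between these groups fixed that sign in advance. The sizes of the ratios come from libraries that also enter the second-step fit, so they are descriptions too.

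DMSO without freezing went with smaller ratios. Fresh cells held for 1 h in DMSO had log2 ratios over fresh cells held for 1 h in medium of -0.50 for GAS1 to 0.54 for FAT3, with a median of 0.24 and 7 members above 0, and no member was 2-fold higher, against 2.24% of all genes. Among frozen cells, 1 h in DMSO over 0 h gave -0.23 for APLN to 0.41 for GAS1 with a median of 0.09. Both ranges include 0 and have no replicate check.

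**Figure D3:**
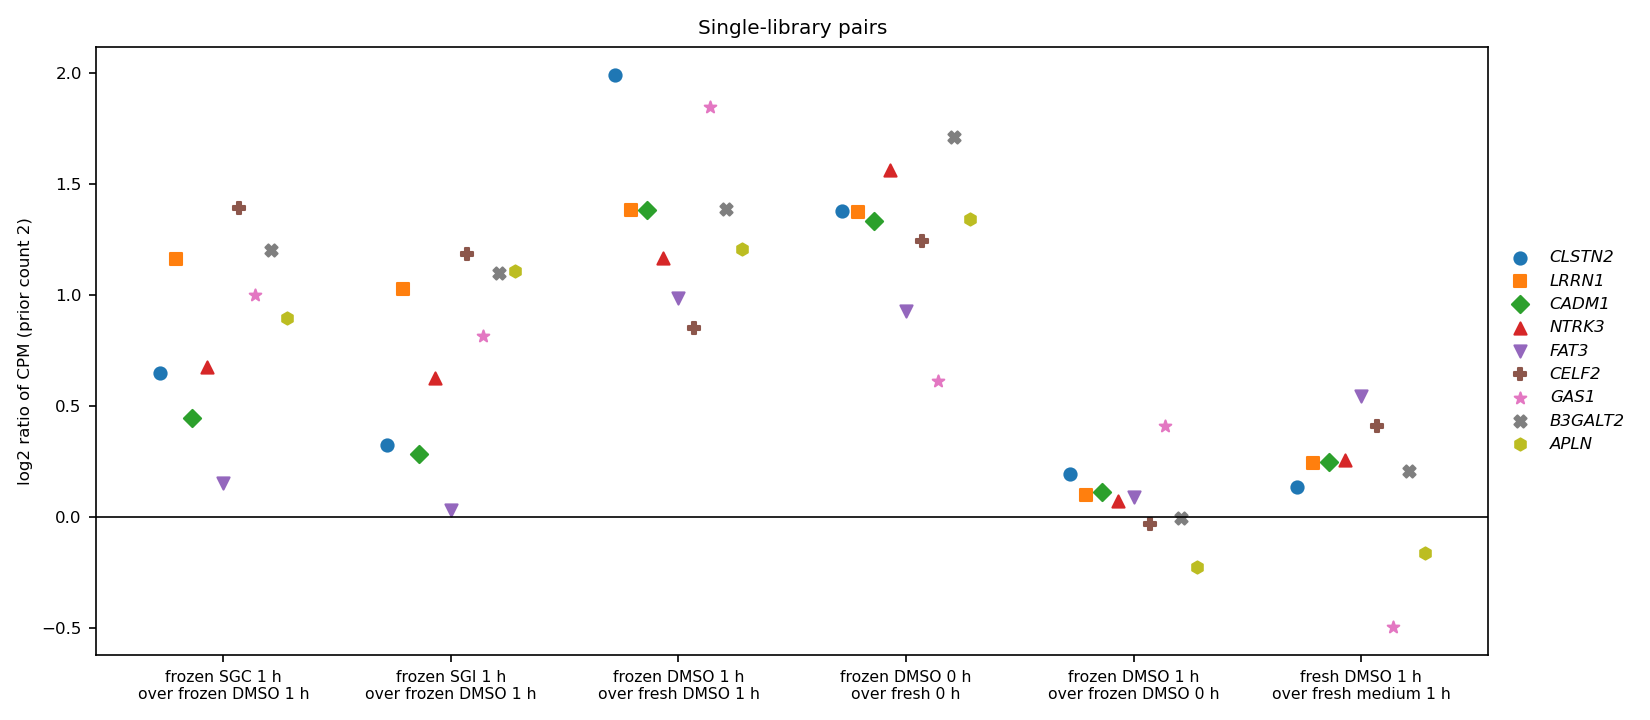
Log2 ratios (prior count 2) of the CPM of the 9 genes in 6 pairs of single libraries, each symbol being 1 gene. Ratios lie above 0 for all genes in the 4 pairs that cross a step, as the lack of overlap between groups required. They lie on both sides of 0 in the 2 pairs that do not.

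The 3 osmolyte solutions were compared only by counting error, with 95% exact Poisson intervals that assume each counted unit was entered as 2. The intervals of the highest and lowest solution were apart for CLSTN2 (1.59-fold), FAT3 (1.28-fold) and CADM1 (1.17-fold), in each case with SMC highest and SGI lowest. They overlapped for the other 6 members, among them NTRK3 at 1.03-fold. SMC held the highest level for 6 members and SGI the lowest for 7, whereas SMC was lowest for B3GALT2 and APLN. SMC was also the only solution held for 2 h.

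Across the 8 libraries the members' log2 levels had pairwise Pearson correlations of 0.895 to 0.994 over 36 pairs. The lowest was that of FAT3 with GAS1. All libraries share the step between fresh and frozen that chose the genes, so the correlation describes the choice. Among 10691 other genes with a mean of at least 5 CPM, the profile over 8 libraries most like the mean of the 9 members was that of ASPN (r = 0.997), which encodes asporin, a proteoglycan of the extracellular matrix. GDF6, LRIG1, VANGL2, DKK2, ST6GAL2, SORBS2, NFE2L3, LOXL4 and NCKAP5 followed, the last with r = 0.990. ASPN had a mean of 9.70 ± 0.730 CPM in osmolyte-frozen, 4.24 ± 0.865 in DMSO-frozen and 1.01 ± 0.180 in fresh libraries. Of the candidates, 520 had r of at least 0.9.

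Most members were long genes. Their median span was 331 kb, against 25.03 kb over tested genes, and 5 of 9 exceeded 300 kb, as did 3.27% of tested genes. Of the 509 tested genes over 300 kb, 63 rose and 147 fell in osmolyte-frozen over DMSO-frozen cells (12.4% and 28.9%, against 13.6% and 16.5% of all tested genes), with a median log2 difference of -0.12 against 0.04. Between DMSO-frozen and fresh cells 15 of the 509 rose and 3 fell (2.95% and 0.589%, against 1.25% and 0.617%), with a median of 0.09 against -0.01. The part of length in the members' levels was not tested.

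Relatives and pathway partners of the members moved in both directions in the second step. The counts that follow leave the members out and are read against the 13.6% of all tested genes that rose and the 16.5% that fell in the second step, and the 1.25% and 0.617% in the first. Over all the lists and cell type markers examined, 65 calls on non-members were made in the second step, and 32 of these held when each library was left out in turn. In the first step 4 of 16 such calls held.

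Of the calsyntenins, CLSTN3 did not pass, and CLSTN1 fell 1.26-fold in osmolyte-frozen over DMSO-frozen cells (200 ± 21.9 against 252 ± 11.9 CPM, adjusted p = 0.013 in edgeR), a call lost without SGI or either DMSO-frozen library (adjusted p up to 0.117). The other 2 tested LRRN genes did not pass in either step. Of 8 tested CADM relatives and nectins, 2 rose and 2 fell in the second step by at most 1.27-fold, and 0 passed in the first.

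The planar polarity genes and the FAT family were mixed. In the second step 4 of 13 rose and 3 fell, with a median log2 difference of 0.22, and in the first 2 rose and 0 fell. DCHS1, a cadherin that binds FAT proteins, and VANGL2, a membrane protein of planar polarity, rose in both steps. VANGL2 averaged 45.8 ± 0.689 CPM in osmolyte-frozen, 39.1 ± 1.84 in DMSO-frozen and 28.2 ± 0.856 in fresh libraries, 1.17-fold in the second step and 1.39-fold in the first. Its second-step call was lost without any library but the fresh 1 h medium one (adjusted p up to 0.258) and its first-step call without the 1 h DMSO-frozen library (adjusted p = 0.0801). DCHS1 rose 1.27-fold in the second step, lost without SMC, SGC, SGI or the 0 h DMSO-frozen library (adjusted p up to 0.400), and 1.67-fold in the first, lost without the 1 h DMSO-frozen library (adjusted p = 0.0657). VANGL1, the relative of VANGL2, fell 1.35-fold (38.0 ± 3.56 against 51.2 ± 0.471 CPM, adjusted p = 0.00126 in edgeR), a call that held without each library in turn. FAT4 fell 1.76-fold, a call lost without either DMSO-frozen library (adjusted p up to 0.0791), and FAT1 fell 1.35-fold, a call lost without the 1 h DMSO-frozen library (adjusted p = 0.0547). Of 20 tested cadherins and protocadherins 3 rose and 5 fell, and 0 passed in the first step. PCDH7 rose 1.76-fold, whereas PCDH9 fell 1.78-fold and PCDH18 fell 1.66-fold, all of them held without each library.

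Of 13 tested immunoglobulin-type neural adhesion genes outside the CADM family, 4 rose and 1 fell in the second step, with a median log2 difference of 0.56, and 2 rose and 0 fell in the first. NTM, a lipid-anchored adhesion protein of neurons, rose 2.60-fold (73.3 ± 4.04 against 28.2 ± 0.207 CPM, adjusted p = 6.06e-06 in edgeR) and held without each library. In the first step NTM was called higher, at 28.2 ± 0.207 CPM in DMSO-frozen against 17.7 ± 3.89 CPM in fresh libraries, but not without either DMSO-frozen library (adjusted p up to 0.187). ALCAM, an adhesion protein that stromal cells carry in quantity, fell 1.72-fold in the second step (374 ± 25.7 against 645 ± 17.7 CPM, adjusted p = 4.26e-06 in edgeR). Of 10 tested trans-synaptic adhesion genes, 0 rose and 1 fell in the second step, and 0 passed in the first. The one that fell was NLGN1, a postsynaptic adhesion protein, at 2.71 ± 0.397 CPM in osmolyte-frozen against 4.28 ± 0.187 CPM in DMSO-frozen libraries (1.58-fold, adjusted p = 0.014 in edgeR), a call lost without either DMSO-frozen library (adjusted p up to 0.114).

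Among the partners of NTRK3, the ligand NTF3 was at 0.393 ± 0.127 CPM in osmolyte-frozen, 0.225 ± 0.0716 in DMSO-frozen and 0.200 ± 0.0662 in fresh libraries and did not pass in either step. Of 6 tested neurotrophin and receptor genes besides NTRK3, 3 rose and 0 fell in the second step, and 2 rose and 0 fell in the first. BDNF, a neurotrophin gene, rose in the second step and held without each library. It averaged 114 ± 3.71 CPM in osmolyte-frozen and 64.9 ± 2.56 CPM in DMSO-frozen libraries (1.76-fold, adjusted p = 1.55e-06 in edgeR).

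The receptor GFRA1, which binds the glial cell line-derived neurotrophic factor GDNF and is related to GAS1 in structure, was graded like the members. It averaged 30.0 ± 3.04 CPM in osmolyte-frozen, 15.97 ± 1.57 in DMSO-frozen and 8.33 ± 0.888 in fresh libraries. It rose 1.87-fold in the second step (adjusted p = 2.21e-05 in edgeR) and 1.92-fold in the first (adjusted p = 0.000148 in edgeR), and both calls held without each library. Of 5 tested genes of the GDNF family, 2 rose and 0 fell in either step. GDNF rose 1.98-fold in the second step (8.52 ± 0.880 against 4.30 ± 0.107 CPM, adjusted p = 0.000138 in edgeR).

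Other genes of the hedgehog pathway moved both ways. Of 12 tested, 2 rose and 4 fell in the second step, with a median log2 difference of -0.24, and 0 passed in the first. PTCH1, a receptor of hedgehog ligands, fell 1.89-fold (5.004 ± 0.903 against 9.44 ± 0.252 CPM, adjusted p = 0.000139 in edgeR). GLI1, a transcription factor and target of the pathway, had 3.29 ± 0.967 CPM in osmolyte-frozen and 3.98 ± 0.494 CPM in DMSO-frozen libraries and did not pass.

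Of 13 other splicing factors of the CELF, MBNL, RBFOX and PTBP kind and their neural relatives, 1 rose and 3 fell in the second step and 0 passed in the first. MBNL2 fell 1.37-fold and RBFOX2 fell 1.31-fold, both held without each library. Of 12 other galactosyltransferases and related enzymes 1 rose and 2 fell in the second step, and 1 rose in the first. B3GALNT1, which transfers N-acetylgalactosamine, fell 2.02-fold (16.1 ± 2.43 against 32.4 ± 2.22 CPM, adjusted p = 3.02e-06 in edgeR), opposite to B3GALT2. The receptor of APLN, APLNR, had 0 counts in the DMSO-frozen and fresh libraries and a mean of 0.0163 CPM in the osmolyte-frozen ones. MME, neprilysin, a peptidase able to cleave apelin, rose 2.08-fold in the first step (8.71 ± 0.105 CPM in DMSO-frozen against 4.19 ± 0.691 CPM in fresh libraries, adjusted p = 0.000509 in edgeR). In the second step MME did not pass, with 6.73 ± 0.506 CPM in osmolyte-frozen libraries.

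**Figure D4:**
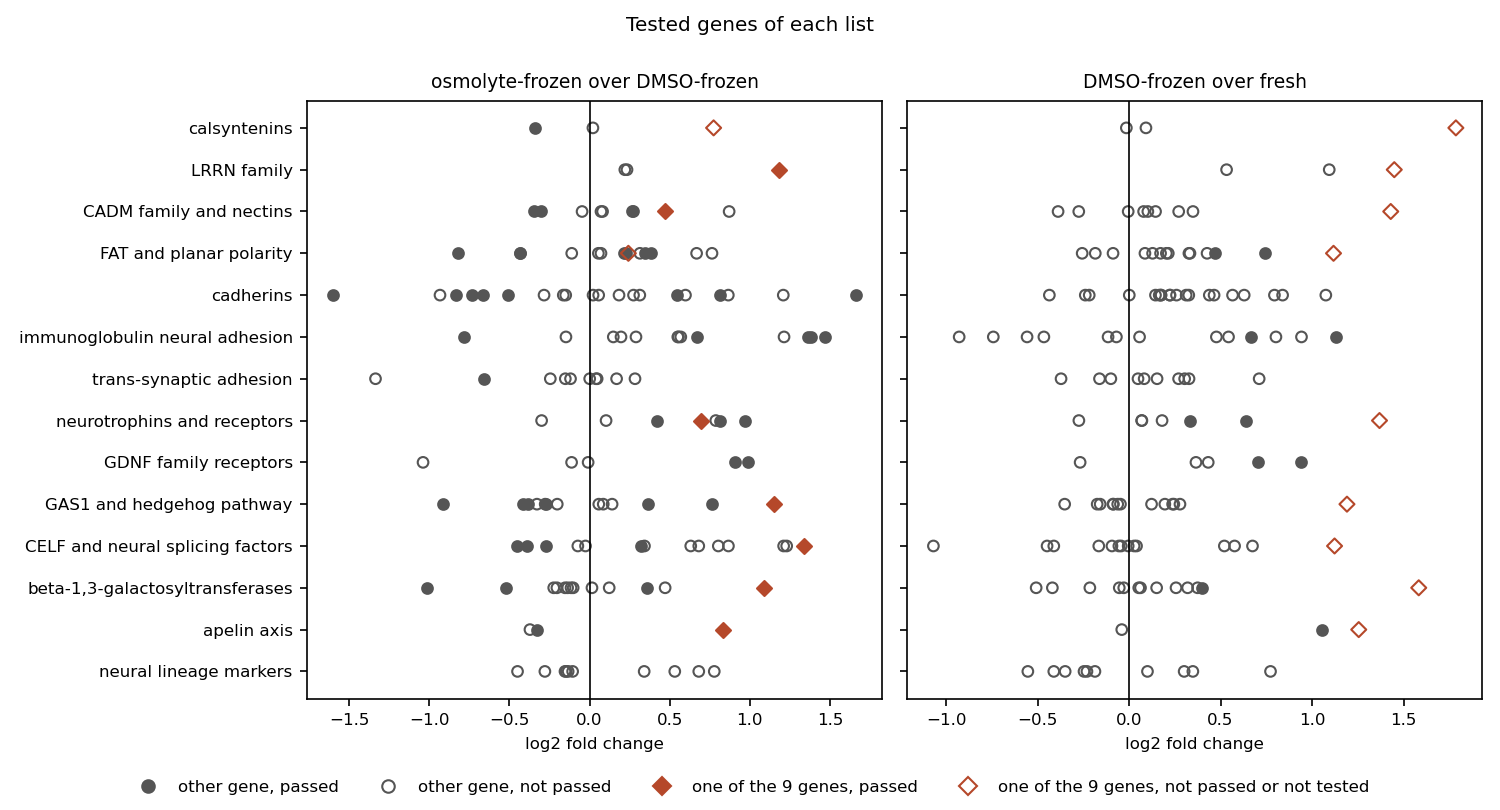
Log2 fold change of every tested gene of 13 lists of relatives and partners and of neural lineage markers, with osmolyte-frozen over DMSO-frozen on the left and DMSO-frozen over fresh on the right. Diamonds are the 9 genes and circles the others, filled where the test was passed. On the right all diamonds are open, because the first step of the 9 genes is given with no test. Circles lie on both sides of 0 in most lists on the left, and the diamonds lie right of 0 in both panels.

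Markers of neurons and neural precursors were set beside the members. Of 18 listed markers 10 were tested, and 0 passed in either step. Their summed level was 117 to 126 CPM in osmolyte-frozen, 124 to 140 in DMSO-frozen and 138 to 165 in fresh libraries, most of it TUBB3 with 96.4 ± 5.86, 106 ± 10.8 and 124 ± 13.2 CPM in the same order of groups. Of the 18 markers 12 stayed under 1 CPM in all libraries, and SOX1, NEUROD1 and NEUROG2 were at 0 throughout. Of 7 tested neural crest and Schwann cell markers 2 rose and 1 fell in the second step and 1 rose in the first, and FOXD3 and PAX3 were at 0 in every library.

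Of 14 tested stromal markers 1 rose and 8 fell in the second step, and 2 fell in the first. Those that fell in the second step included CD44 by 1.79-fold and ANPEP by 1.98-fold, which held without each library. THY1 rose 1.19-fold, a call kept only without SGI or the fresh 1 h medium library and lost without any other (adjusted p up to 0.179). Pluripotency markers summed to 51.8 to 56.2 CPM in osmolyte-frozen, 41.6 to 43.0 in DMSO-frozen and 37.7 to 38.8 in fresh libraries, and 3 of 8 tested rose in the second step and 1 in the first. Endothelial markers summed to 58.5 to 69.9 CPM in osmolyte-frozen, 64.8 to 68.4 in DMSO-frozen and 45.6 to 55.5 in fresh libraries. Of 7 tested, 1 rose and 2 fell in the second step and 1 rose in the first. The 2 that fell were TIE1 and TEK. TIE1 fell 1.83-fold (adjusted p = 0.00209 in edgeR), a call that held without each library. TEK fell 1.24-fold, a call lost when any of 4 of the 8 libraries was left out. The endothelial transcription factor ERG was graded like the members, with 18.7 ± 2.80 CPM in osmolyte-frozen, 10.03 ± 0.905 in DMSO-frozen and 5.32 ± 1.19 in fresh libraries. ERG rose 1.87-fold in the second step (adjusted p = 0.000591 in edgeR), held without each library, and 1.88-fold in the first, a call lost without the 1 h DMSO-frozen library (adjusted p = 0.119). The endothelial junction gene CDH5 stayed at 0.915 ± 0.299 CPM in osmolyte-frozen, 0.394 ± 0.000688 in DMSO-frozen and 0.187 ± 0.1003 in fresh libraries and did not pass. Of 6 tested epithelial markers 1 rose in the second step and 1 fell in the first, both of them the keratin KRT19, with 11.9 ± 1.15 CPM in osmolyte-frozen, 9.14 ± 0.00978 in DMSO-frozen and 17.7 ± 1.30 in fresh libraries. Its fall of 1.94-fold in the first step held without each library, and its rise in the second was lost without SGC or either DMSO-frozen library (adjusted p up to 0.107). The nuclear RNAs MALAT1 and NEAT1 took 0.846% to 0.948% of counts in osmolyte-frozen, 0.393% to 0.452% in DMSO-frozen and 0.472% to 0.567% in fresh libraries. The part of any of these in the levels of the 9 genes was not tested.

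The sum of counts per library lay between 41198716 and 51166666. As a share of the library total behind the authors' RPKM it was 64.0% to 66.9% in osmolyte-frozen, 72.1% to 73.0% in DMSO-frozen and 66.2% to 70.4% in fresh libraries, whose part in the results was not tested.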

How the data were processed

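Total RNA of 8 libraries was sequenced. The submitters' processing notes name CASAVA 1.9, TopHat 12.0.6, HTSeq and the build hg19; the annotation release, strand setting and handling of mates are absent from the sources used here. Per the file headers, each gene has a deposited whole-number count and an RPKM value in each library. The counts had not been normalised by the authors, and 0 of them were odd. The authors' RPKM values refer to kilobases and to a library total larger than the sum of counts, and served only to set levels of different genes side by side and for that total. Of 23398 entries, 49 identifiers were repeated. Of these 41 had identical counts and were kept once, and 8 had different counts and were kept apart, which left 23354 genes.

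The count test was edgeR 4.0.16 (R 4.3.3): filterByExpr by fresh or frozen state, TMM scaling and a robust quasi-likelihood fit of the 3 groups (5 residual degrees of freedom, biological coefficient of variation 0.0971), with Benjamini-Hochberg adjustment at 0.05 over 15564 genes. The standard error is the absolute log2 fold change over the root of F. Single-library ratios used a prior count of 2. Intervals cover counting error only.

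The 9 members and all gene lists were chosen with earlier results of these data known. The text names the members, at most the 3 largest passing rises and falls per list and comparison, the 10 genes most correlated with the members, and defining markers. Genes at the edge of the selection and CDC73 were named after their values were seen. Groups came from sample titles and no library was left out. DESeq2 1.42.0, other scalings, filters and library sets were alternatives. The fits were tested on simulated data. Some results for single genes of the lists are not reported here.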

Additional observations from a re-analysis of the deposited data

How the results depend on the processing

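Between 7 and 8 members rose in osmolyte-frozen over DMSO-frozen cells under the 16 alternatives. CLSTN2 was the member added, and with the 1 h libraries only it stood in place of CADM1. The number of all genes called in that comparison was 4684, 2359 with the 1 h libraries only, and 2136 to 5254 with 1 library left out, lowest without the 0 h DMSO-frozen one. Scaling by library totals alone gave 2571 higher and 1985 lower calls, in place of 2121 and 2563. For DMSO-frozen over fresh cells there were 291 calls, 496 with DESeq2, 164 with the 1 h libraries only and 91 to 311 with 1 library left out, with 91 without the 1 h and 99 without the 0 h DMSO-frozen library. The difference of the steps was called for 701 genes, 460 with library totals, 1120 without the filter, 1276 with DESeq2, 91 with the 1 h libraries only and 17 to 1049 with 1 library left out, falling to 17 without the 0 h DMSO-frozen library, 44 without the 1 h one, 317 without SGC and 342 without SGI. The causes were not tested. Osmolyte-frozen over fresh cells gave 6236 calls and stayed within 1.5 times of that under all its alternatives. For single genes, 189 values lost the threshold, 9 gained it and 0 reversed. No paired analysis was possible because the labels carry no replicate numbers. The DMSO-frozen group had 2 libraries, which limits the precision of both steps.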
